A study of Mus musculus with 8 samples.

Results

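The set described here holds 50 genes of the mouse cell cycle, grouped into 6 genes of G1 control, 19 genes of DNA replication and nucleotide supply, and 25 genes of mitosis. Its members were chosen by name, and each was represented by the probe set with the highest mean signal among those that the platform annotation assigned to that gene alone. Of 18193 genes with a probe set, 49 were members; Ccnb1 was not analysed here. All 49 passed the filter on low signals that left 14023 genes for testing, and 48 of them were above the floor of 64.1 in all 8 arrays, with Tyms above it in 7.

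The study measured total RNA of C57BL/6 mice at 110 days on Affymetrix arrays, 1 array per group. Colon tumours came from ACKR2-/-ApcMin/+ mice and from ApcMin/+ mice, and tumours of the small intestine (ileum) came from the same 2 genotypes. Non-tumour colon and small intestine came from ACKR2-/- mice and from WT mice, which carried no ApcMin allele. The ApcMin allele truncates Apc, an inhibitor of Wnt signalling, and mice that carry it develop intestinal tumours spontaneously; ACKR2, also called D6, is a receptor that takes up inflammatory chemokines. RNA was pooled per genotype and tissue, and the number of mice per pool was not given. Tumour status and the ApcMin genotype therefore cannot be told apart, and no non-tumour tissue of ApcMin/+ mice was analysed here.

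Facts of all 8 arrays bear on every comparison. The trimmed mean signal was 500.003 in each array, while the median signal lay between 96.0 and 127.6 in the 4 tumour arrays and between 85.2 and 132.7 in the 4 non-tumour arrays. The 3 Ackr2 probe sets had signals of 71.3 to 153, 22.2 to 98.6 and 1.10 to 10.5, near or under the floor in every genotype, so they did not check the ACKR2-/- labels. Xist, transcribed from the inactive X of females, had 77.9 and 127 in the ACKR2-/-ApcMin/+ tumours, 2954 and 4827 in the ApcMin/+ tumours, 4522 and 2818 in ACKR2-/- tissue and 9809 and 7807 in WT tissue, each for colon and then small intestine. Eif2s3y, on the Y chromosome, was between 888 and 1501 in every array but the 2 WT arrays, at 2.92 and 2.66, so sex composition moved with genotype and tumour status. The tissue labels were borne out, as 10 of 10 enterocyte markers of the small intestine were lower in non-tumour colon (median log2 difference -6.91). Of 10 colonocyte markers, 6 were higher in non-tumour colon and 1 was lower (median 3.56).

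A cell that enters the cycle first meets the G1 checkpoint, where D-type cyclins with CDK4 and cyclin E release E2F transcription factors. E2F factors drive genes that load and fire the replication origins and supply nucleotides, and a later wave, driven through the MuvB complex with B-MYB and FOXM1, builds the mitotic spindle and its checkpoint. In the intestine, dividing cells sit in the crypts, where Wnt signalling maintains stem cells and their dividing daughters.

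Promoter windows of the members are shown because replication and mitosis genes, which the comparisons below set beside each other, are known to carry different control elements. RefSeq windows on GRCm38.p6, from 250 bases before to 50 bases after the gene start, were found for 38 of 50 members, of which the first listed window was used. They were searched on both strands for 4 E2F-type sequences (TTCCCGC or TTCGCGC or TTGCCGC or TTGGCGC), 2 forms of the cell cycle homology region or CHR (TTTGAA and TTCGAA), and the CCAAT box (CCAAT); overlapping matches were each counted. An E2F-type match was present in 10 of 15 replication windows (66.7%) and 4 of 20 mitosis windows (20%), beside 9.69% of 27025 windows of all genes. A CHR match was present in 3 of 15 replication windows (20%) and 15 of 20 mitosis windows (75%), beside 19.4% of all windows. CCAAT stood in 11 of 15 replication windows (73.3%) and 17 of 20 mitosis windows (85%), beside 37.9% of all windows, and every window of a member with a CHR match also held a CCAAT. None of these letters were found in the 3 windows of G1 control genes. Windows of 2 replication genes (Mcm6, Rrm2) and 2 mitosis genes (Top2a, Cdc20) are printed below 5′ to 3′ along the gene's strand, with matches in capitals. Mcm6 held 5 E2F-type matches, of which 4 lie in 2 stretches that each read as a match on both strands, and 2 CCAAT. Rrm2 held 1 E2F-type and 1 CCAAT, Top2a 4 CHR and 6 CCAAT, and Cdc20 1 CHR and 2 CCAAT. Mcm6 was chosen for the most E2F-type matches of the replication windows, and Top2a for the most CHR matches of the mitosis windows. Rrm2 and Cdc20 were chosen because they passed the test between tissues described below and held a match.
Mcm6, chr1:128359656-128359955, minus strand: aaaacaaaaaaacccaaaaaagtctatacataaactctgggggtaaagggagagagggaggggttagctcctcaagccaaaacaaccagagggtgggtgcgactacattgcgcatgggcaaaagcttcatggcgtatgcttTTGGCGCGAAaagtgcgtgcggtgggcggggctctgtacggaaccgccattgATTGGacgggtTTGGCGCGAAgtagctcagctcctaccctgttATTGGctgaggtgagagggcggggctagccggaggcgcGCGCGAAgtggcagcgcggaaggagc
Rrm2, chr12:24708004-24708303, plus strand: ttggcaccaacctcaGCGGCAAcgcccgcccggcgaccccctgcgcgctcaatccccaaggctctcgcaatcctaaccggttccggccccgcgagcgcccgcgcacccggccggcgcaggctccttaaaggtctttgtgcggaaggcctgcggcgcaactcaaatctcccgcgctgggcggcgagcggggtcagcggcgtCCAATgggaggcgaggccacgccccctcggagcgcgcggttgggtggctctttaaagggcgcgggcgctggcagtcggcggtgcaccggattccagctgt
Top2a, chr11:99024140-99024439, minus strand: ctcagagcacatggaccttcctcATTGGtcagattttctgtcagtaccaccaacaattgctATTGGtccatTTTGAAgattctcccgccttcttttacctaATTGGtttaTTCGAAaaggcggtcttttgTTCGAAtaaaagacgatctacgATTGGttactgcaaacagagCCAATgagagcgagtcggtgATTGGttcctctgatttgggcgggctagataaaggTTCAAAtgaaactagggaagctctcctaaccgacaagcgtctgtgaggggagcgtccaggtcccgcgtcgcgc
Cdc20, chr4:118437294-118437593, minus strand: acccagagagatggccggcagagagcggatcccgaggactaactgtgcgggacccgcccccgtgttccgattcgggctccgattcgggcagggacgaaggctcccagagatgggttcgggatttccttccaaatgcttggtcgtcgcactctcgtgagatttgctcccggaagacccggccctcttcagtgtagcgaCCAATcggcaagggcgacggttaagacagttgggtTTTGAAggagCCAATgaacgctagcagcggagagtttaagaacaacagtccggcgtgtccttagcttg
The windows of Tk1 and Birc5, whose values appear below, held none of the letters searched, which says only that these letters are not in these windows.

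Cell cycle genes were higher in colon tumours than in non-tumour colon in nearly every member, and none passed the test in small intestine tumours, where the median difference was 0.26. In colon, 44 of 49 members passed the test as higher and 0 as lower, against 11.0% of 14023 genes higher and 12.6% lower. The median log2 difference of the members was 1.48, that of all genes 0. By role, 18 of 19 replication genes rose (median 1.38), 23 of 24 mitosis genes rose (median 1.69) and 3 of 6 G1 control genes rose (median 1.15). The members at least 2-fold higher in both colon tumour arrays than in the non-tumour array of the same ACKR2 genotype numbered 34 of 49, against 4.86% of all genes. Both tumour arrays were above both non-tumour arrays of colon in 45 members and below them in 1, against 26.4% and 26.6% of all genes. Averaged over both tissues, 42 members were higher and 0 lower, against 13.1% and 12.0% of all genes.

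**Figure D1:**
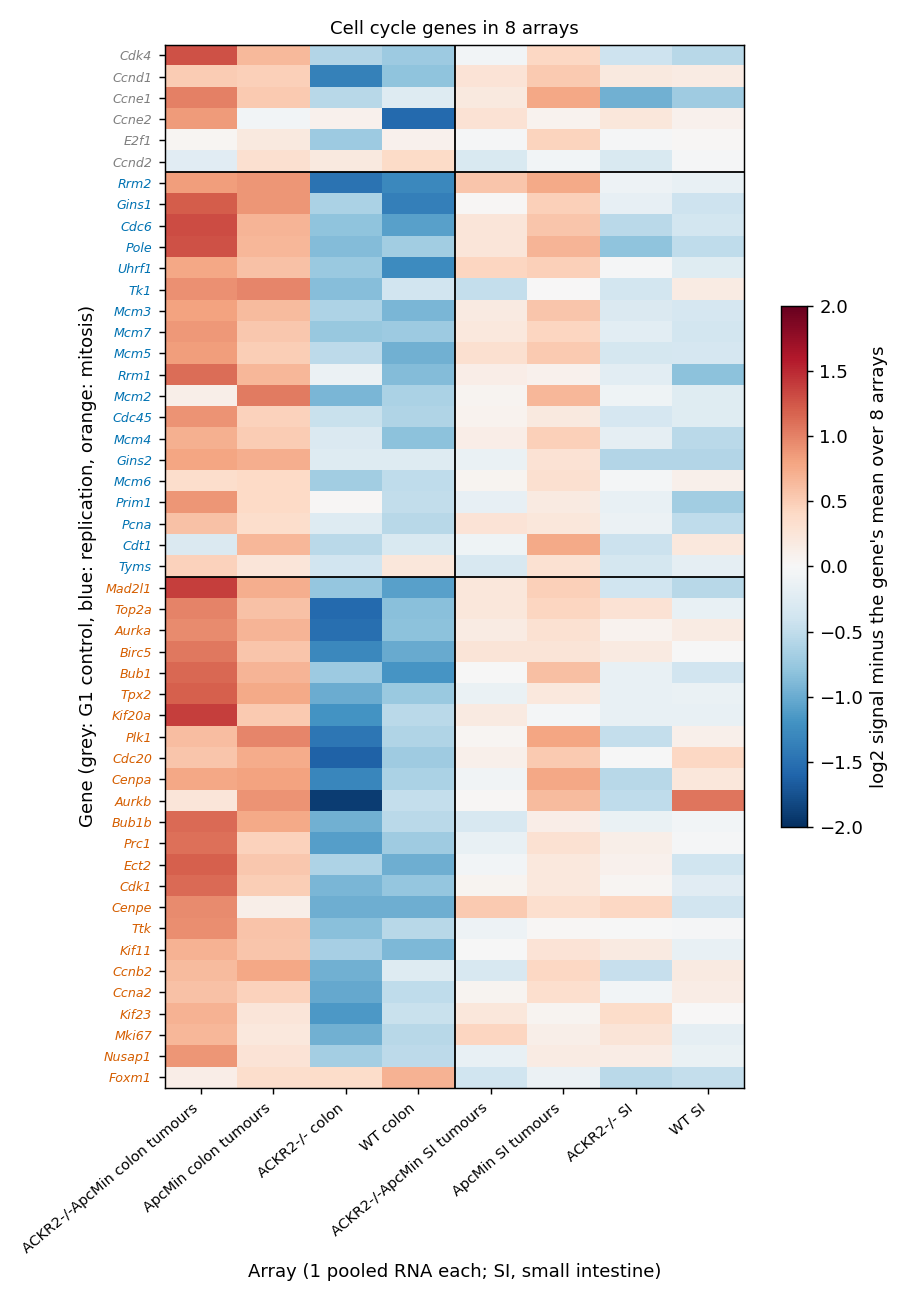
Log2 signal of 49 cell cycle genes in each of 8 arrays (columns; colon left, small intestine right, tumours left of non-tumour tissue), with each gene's mean over the arrays set to 0 and rows ordered within role by the tumour effect in colon. Red is above and blue below the gene's mean; the ACKR2-/-ApcMin/+ colon tumour array was the highest for 35 of 49 genes and the ACKR2-/- colon array the lowest for 29.

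These tests came from a limma model in which the error is how far the ACKR2 difference varied between colon and small intestine, because each group had 1 array. With any single array left out, 0 of 49 members passed at an adjusted p under 0.05 in any contrast, so no call of a member below survives the loss of an array; in the colon tumour contrast 0 of 14023 genes passed, and 33 to 43 members then still had an unadjusted p under 0.05, and the member median stayed between 1.20 and 1.72. Without both WT arrays the median was 1.55, and without both ACKR2-/-ApcMin/+ arrays it was 1.34, again with 0 calls. Tumour signals are given for ACKR2-/-ApcMin/+ and then ApcMin/+, non-tumour signals for ACKR2-/- and then WT, and a log2 difference stands with its standard error and its limma p adjusted over 14023 genes.

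The 6 G1 control genes divided into 3 that rose in colon tumours and 3 that did not pass. Cdk4, the kinase that D-type cyclins activate, had signals of 5450.4 and 3532 in colon tumours, against 1503 and 1371 in non-tumour colon. In the small intestine it had 2188 and 3007 in tumours, against 1702 and 1549 in non-tumour tissue. Both tumour arrays were above both non-tumour arrays in each tissue; the difference was 1.61 ± 0.26 in colon (adjusted p = 0.00962) and 0.66 ± 0.26 in small intestine (adjusted p = 0.225).

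Ccnd1, a D-type cyclin, had 4292 and 4198 in colon tumours, against 1185 and 1734 in non-tumour colon, a difference of 1.57 ± 0.19 (adjusted p = 0.00471). In small intestine it had 3663 and 4354 in tumours, against 3455 and 3382 in non-tumour tissue (0.22 ± 0.19, adjusted p = 0.56). Its signal was thus similar in 6 of 8 arrays and low in the 2 non-tumour colon arrays. Ccnd2, another D-type cyclin, followed neither pattern, with 4878 and 7131 in colon tumours, against 6542 and 7399 in non-tumour colon (-0.24 ± 0.15, adjusted p = 0.306), and with 4601 and 5468 in small intestine tumours, against 4630.5 and 5595 in non-tumour small intestine (-0.02 ± 0.15, adjusted p = 0.976). For this probe set the Ccnd2 groups overlapped in both tissues. Dimmer Ccnd2 probe sets, with mean signals of 2844, 495 and 257, gave -0.98, -1.16 and -1.24 in colon. In small intestine they gave -0.49, -1.39 and -0.86. The remaining ones, with mean signals of 5742, 3529 and 3067, gave -0.16, -0.35 and 0.03 in colon. In small intestine these gave -0.43, -0.25 and -0.07. The size of the Ccnd2 difference therefore depended on the probe set.

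Ccne1, the cyclin E that partners CDK2 at entry to S phase, was the G1 member with a difference of like size in both tissues. It had 666 and 475 in colon tumours, against 224 and 277 in non-tumour colon (1.18 ± 0.32, adjusted p = 0.0429), and 378 and 562 in small intestine tumours, against 169 and 201 in non-tumour small intestine (1.32 ± 0.32, adjusted p = 0.0842). A second Ccne1 probe set with a mean signal of 198 gave 0.77 in colon and -0.36 in small intestine, so the small intestine value rests on 1 probe set. The other cyclin E gene, Ccne2, had 633 and 337 in colon tumours, against 375 and 119.8 in non-tumour colon, groups that overlapped. E2f1, a transcription factor that activates replication genes, had 148 and 166 in colon tumours, against 87.5 and 153 in non-tumour colon (0.43 ± 0.28, adjusted p = 0.31), and 141 and 196 in small intestine tumours, against 141 and 146 in non-tumour small intestine (0.21 ± 0.28, adjusted p = 0.727).

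Among the replication genes, Rrm2, the regulated subunit of ribonucleotide reductase, had the largest tumour difference in colon of all members. It had 2154 and 2213 in colon tumours, against 433 and 492 in non-tumour colon, a fold of 4.98 in the ACKR2-/- pair and 4.50 in the WT pair (2.24 ± 0.16, adjusted p = 0.00139). In small intestine it had 1765 and 2030.5 in tumours, against 1118 and 1089 in non-tumour tissue (0.78 ± 0.16, adjusted p = 0.0539). Its signal lay between 1765 and 2213 in all 4 tumour arrays, and the non-tumour colon arrays were the lowest. Its partner subunit Rrm1 also rose in colon (1.38 ± 0.16, adjusted p = 0.00464).

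Gins1, a subunit of the GINS complex of the replicative helicase, had 708 and 566 in colon tumours, against 198 and 119 in non-tumour colon (2.05 ± 0.30, adjusted p = 0.00777), and 311 and 427 in small intestine tumours, against 274 and 231 in non-tumour small intestine (0.54 ± 0.30, adjusted p = 0.38). Cdc6, which loads the MCM helicase onto origins, had 575 and 375 in colon tumours, against 134 and 110.3 in non-tumour colon (1.93 ± 0.32, adjusted p = 0.0111), and 276 and 344 in small intestine tumours, against 161 and 181 in non-tumour small intestine (0.85 ± 0.32, adjusted p = 0.213). For both genes every tumour array exceeded the non-tumour arrays of its tissue. The 6 subunits of that helicase, Mcm2 to Mcm7, rose together in colon, by 0.97 (Mcm6) to 1.48 (Mcm3); in small intestine they were at 0.15 (Mcm6) to 0.76 (Mcm5) and none passed. Gins2 and Cdc45, further parts of the helicase, rose by 1.01 ± 0.23 and 1.20 ± 0.27 in colon.

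Pcna, the sliding clamp of the DNA polymerases, showed one of the smaller differences in colon. It had 13335 and 11323 in colon tumours, against 7442 and 6028 in non-tumour colon (0.88 ± 0.15, adjusted p = 0.0129), and 10778 and 10339.8 in small intestine tumours, against 8175 and 6205 in non-tumour small intestine (0.57 ± 0.15, adjusted p = 0.111). Pole, the catalytic subunit of DNA polymerase epsilon, was the single member at least 2-fold higher in tumours in all 4 pairs, a pattern of 1.16% of all genes. It had 626 and 413 in colon tumours, against 142 and 161 in non-tumour colon, and 308 and 418 in small intestine tumours, against 149 and 183 in non-tumour small intestine; Pole was singled out after its values were seen.

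The replication members at the low end in colon were Cdt1 and Tyms. Cdt1, a licensing factor that works with CDC6, had 1335 and 2576 in colon tumours, against 1123 and 1318 in non-tumour colon (0.61 ± 0.16, adjusted p = 0.0422), and 1538 and 2749.7 in small intestine tumours, against 1201 and 1873 in non-tumour small intestine (0.46 ± 0.16, adjusted p = 0.196). Tyms, thymidylate synthase, was close to the floor throughout, with 116 and 99.6 in colon tumours, against 31.7 and 98.1 in non-tumour colon, and 67.1 and 104 in small intestine tumours, against 66.0 and 73.9 in non-tumour small intestine. It was the replication gene that did not pass in colon (0.44 ± 0.26, adjusted p = 0.282), at signals that allow little to be measured.

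Among the mitosis genes, Mad2l1, a component of the spindle assembly checkpoint, had 5319.6 and 3367 in colon tumours, against 1192 and 966 in non-tumour colon (1.98 ± 0.23, adjusted p = 0.00445). In small intestine it had 2399.6 and 2843 in tumours, against 1551 and 1387 in non-tumour tissue (0.83 ± 0.23, adjusted p = 0.115). Its small intestine difference was the largest of the 24 mitosis genes. Top2a, the topoisomerase that untangles chromosomes, had 5752 and 4358 in colon tumours, against 992 and 1629.8 in non-tumour colon (1.98 ± 0.30, adjusted p = 0.0081). Its small intestine groups overlapped, with 3394 and 3918 in tumours, against 3552 and 2607 in non-tumour tissue (0.26 ± 0.30, adjusted p = 0.681).

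Aurka, a kinase of the spindle poles, had 1150.5 and 954 in colon tumours, against 209.6 and 339.6 in non-tumour colon (1.97 ± 0.24, adjusted p = 0.00492), and 671 and 739 in small intestine tumours, against 627 and 668 in non-tumour small intestine (0.12 ± 0.24, adjusted p = 0.829). Birc5, or survivin, a subunit of the chromosomal passenger complex, had 2486 and 1769 in colon tumours, against 491 and 596 in non-tumour colon (1.95 ± 0.20, adjusted p = 0.00348), and 1432 and 1438 in small intestine tumours, against 1360.3 and 1191 in non-tumour small intestine (0.17 ± 0.20, adjusted p = 0.69). Both genes showed the shape of most mitosis members: high in colon tumours, low in non-tumour colon, and at similar intermediate signals in all 4 small intestine arrays. Mki67, the antigen widely stained to mark dividing cells, had 4303 and 3152 in colon tumours, against 1406 and 1859.9 in non-tumour colon (1.19 ± 0.22, adjusted p = 0.015), and 3687 and 2969 in small intestine tumours, against 3252 and 2394 in non-tumour small intestine (0.25 ± 0.22, adjusted p = 0.585).

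The other mitosis genes that rose in colon did so by 1.26 (Kif23, a kinesin of cytokinesis) to 1.87 (Bub1, a checkpoint kinase), apart from Nusap1. Nusap1, a spindle microtubule binder, had 2294 and 1514 in colon tumours, against 783 and 873 in non-tumour colon (1.17 ± 0.25, adjusted p = 0.0223), and 1132 and 1396 in small intestine tumours, against 1386 and 1144 in non-tumour small intestine. Within that range lay Cdk1 (1.65 ± 0.23), the kinase that starts mitosis, and its cyclin partners Ccna2 (1.29 ± 0.17) and Ccnb2 (1.31 ± 0.19). Also within it were Plk1 (1.82 ± 0.22), a kinase of spindle assembly and mitotic exit, Ttk (1.45 ± 0.27), a kinase of the spindle checkpoint, and Cenpa (1.76 ± 0.24), the histone H3 variant of centromeres.

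Foxm1, a transcription factor of the mitotic wave, did not follow the mitosis genes. Its chosen probe set had 422 and 489 in colon tumours, against 495 and 618 in non-tumour colon (-0.28 ± 0.23, adjusted p = 0.422), and 289.6 and 353 in small intestine tumours, against 263 and 276 in non-tumour small intestine (0.25 ± 0.23, adjusted p = 0.597). Its 2 dimmer probe sets, with mean signals of 128 and 109, gave 0.28 and 0.75 in colon and -0.52 and -0.19 in small intestine. The direction of Foxm1 was therefore not settled by these probe sets.

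The members' 66 other probe sets gave a check of the chosen ones on the same RNA. Of the 52 that were above the floor in at least 2 arrays, from 33 genes, 47 had the direction of the chosen probe set in colon tumours and 4 the opposite; in small intestine tumours 43 had the same direction and 9 the opposite. When all probe sets of each gene were averaged in place of taking the brightest, the member median was 1.18 in colon. Rrm2 was the 1 member still called, as calls over all genes fell to 202 among 18032 tested. The filter on low signals removed few genes in this setting. Without the filter, the brightest probe sets gave 0 members and 87 of 18193 genes. The loss of calls from averaging and from the weaker filter therefore cannot be told apart.

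**Figure D2:**
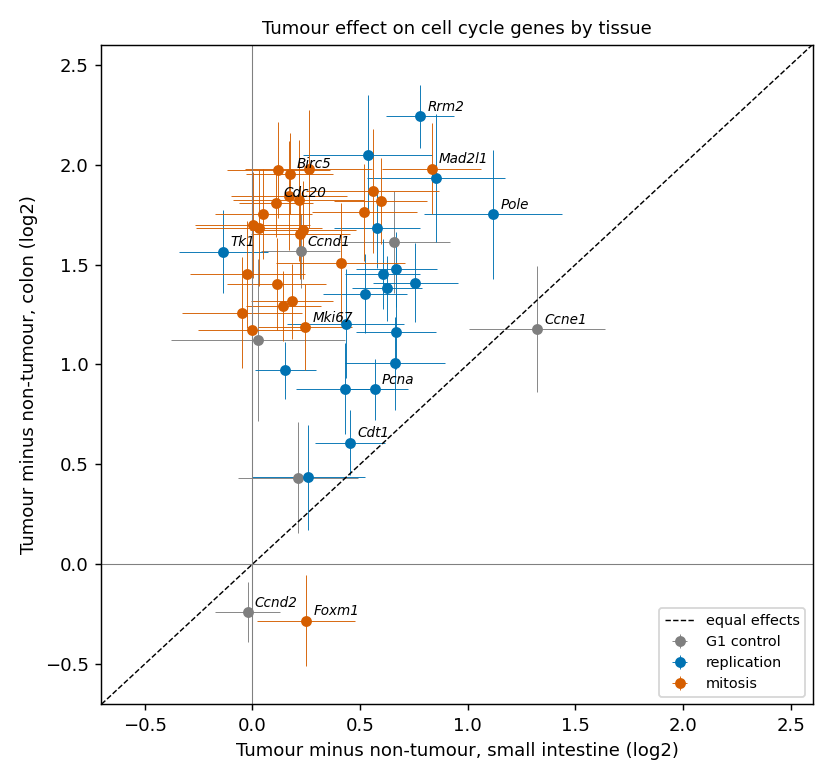
Tumour minus non-tumour log2 difference in colon (vertical) against that in small intestine (horizontal) for 49 genes, coloured by role, with bars of 1 standard error from the limma model and a dashed line of equal effects. Mitosis genes (orange) lie between 1.17 and 1.98 on the vertical axis, apart from Foxm1, with a median of 0.18 on the horizontal axis and the furthest right at 0.83 (Mad2l1); replication genes (blue) have a median of 0.58 on the horizontal axis.

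In small intestine, 0 of 49 members passed the test in either direction, against 2.77% of genes higher and 1.20% lower, with Rrm2 the closest at an adjusted p of 0.0539. At an unadjusted p under 0.05, 17 members were higher, against 12.2% of all genes: 13 of 19 replication genes, 2 of 24 mitosis genes and 2 of 6 G1 control genes. The median difference was 0.58 for replication genes, 0.18 for mitosis genes and 0.22 for G1 control genes, beside 0.04 for all genes. Both tumour arrays were above both non-tumour arrays in 14 of 19 replication genes and 7 of 24 mitosis genes, against 23.2% of all genes. Ccne1 and Pole were the 2 members at least 2-fold higher in both small intestine pairs, against 3.14% of all genes. Requiring a signal above the floor in all 8 arrays gave 2 members higher of 48 tested, against 310 of 10655 genes. A model without separate ACKR2 effects gave 1 of 49, against 391 of 14023 genes. Scaling to equal medians moved the median of all genes to -0.12 and left the members at 0.07, of which mitosis genes were at -0.02 and replication genes at 0.38. Leaving out 1 array, replication medians ranged from 0.40 to 0.85 and mitosis medians from -0.08 to 0.46; the lowest of both came without the ApcMin/+ tumour array and the highest without the ACKR2-/-ApcMin/+ tumour array.

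The test of the difference between tissues asked whether the tumour effect was larger in colon than in small intestine. Of 49 members, 4 passed as larger in colon (8.16%) and 0 as smaller, against 0.735% of all genes larger and 1.52% smaller; these 4 were named because they passed. At an unadjusted p under 0.05, 34 members were larger in colon, against 7.07% of all genes: 23 of 24 mitosis genes, 9 of 19 replication genes and 2 of 6 G1 control genes. Birc5 differed by 1.78 ± 0.29 (adjusted p = 0.042), Cdc20 by 1.70 ± 0.25 (adjusted p = 0.0326), Tk1 by 1.70 ± 0.29 (adjusted p = 0.0489) and Rrm2 by 1.46 ± 0.22 (adjusted p = 0.037). Aurka had the largest estimate and missed the threshold (1.85 ± 0.34, adjusted p = 0.0553), as did Top2a (1.72 ± 0.42, adjusted p = 0.104). The 4 calls became between 2 and 7 under other floors, stricter filtering, other scalings and a model without separate ACKR2 effects. Without the variance trend none of these 4 passed and 1 other member did. The count was 0 without a filter, with all probe sets averaged, or with any array left out.

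Cdc20, the activator of the anaphase-promoting complex, had 2911 and 3326 in colon tumours, against 650.3 and 1213 in non-tumour colon, and 2131 and 2856 in small intestine tumours, against 1985 and 2635 in non-tumour small intestine. Tk1, the thymidine kinase that salvages thymidine for DNA synthesis, had 1109.9 and 1159 in colon tumours, against 327 and 450.2 in non-tumour colon, and 424 and 591 in small intestine tumours, against 458 and 659 in non-tumour small intestine. The small intestine groups overlapped for both genes. Tk1 was the replication gene with the lowest small intestine value (-0.13 ± 0.21) and in this resembled the mitosis genes, whereas Rrm2 differed between tissues although it was also higher in small intestine tumours in both pairs.

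**Figure D3:**
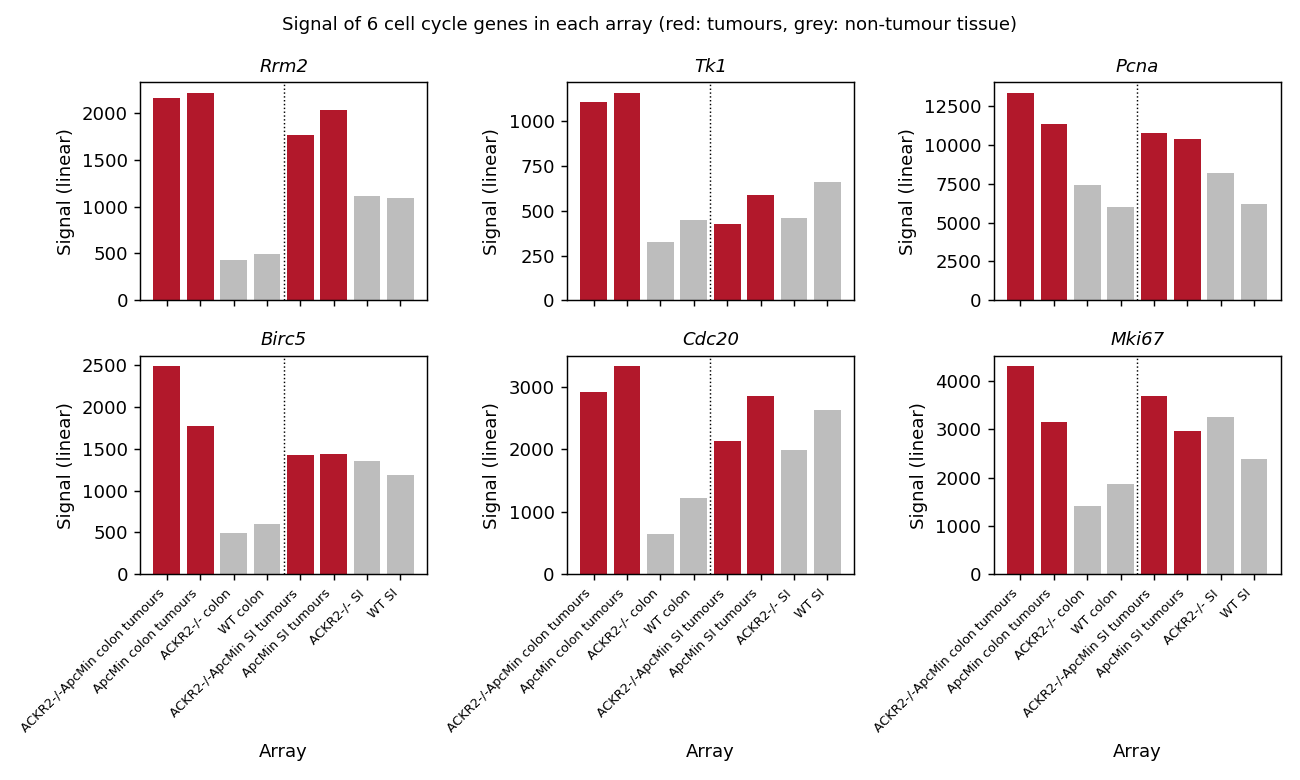
Linear MAS5 signal of 3 replication genes (Rrm2, Tk1, Pcna; top) and 3 mitosis genes (Birc5, Cdc20, Mki67; bottom) in each array, 1 bar per array and 1 pooled RNA per bar, with tumours in red, left of non-tumour tissue in grey. The 2 non-tumour colon bars are the lowest in each mitosis panel, while the tumour and non-tumour bars of the small intestine overlap for Cdc20, Mki67 and Tk1.

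By role, the test above called 2 of 24 mitosis genes and 2 of 19 replication genes. The median of colon minus small intestine was 1.37 for mitosis genes, 0.77 for replication genes and 0.59 for G1 control genes, beside -0.07 for all genes. Both colon pairs exceeded both small intestine pairs in 23 of 24 mitosis genes, 15 of 19 replication genes and 3 of 6 G1 control genes, against 20.6% of all genes; Foxm1 and Ccnd2 were the 2 members with both colon pairs below both small intestine pairs, a pattern of 27.8% of all genes. The smallest differences were those of Foxm1 (-0.53 ± 0.32, adjusted p = 0.434), Ccnd2 (-0.22 ± 0.21, adjusted p = 0.637) and Ccne1 (-0.15 ± 0.45, adjusted p = 0.898). The Foxm1 value holds for its chosen probe set only. Its dimmer ones, at 0.28 and 0.75 in colon and -0.52 and -0.19 in small intestine, went the other way. By pair, the mitosis median was 2.06 in the ACKR2-/- colon pair and 1.34 in the WT colon pair, and 0.10 and 0.32 in the small intestine pairs; the replication median was 1.35 and 1.36 in colon and 0.40 and 0.87 in small intestine. No test compared the 2 roles with each other.

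The comparison of the tissues within each tumour status gives the 2 parts of that difference. In non-tumour tissue, 12 of 49 members were lower in colon than in small intestine and 1 was higher, against 8.40% of genes lower and 13.0% higher. The 12 were Ccnd1, Aurka, Aurkb, Birc5, Ccna2, Cdc20, Mki67, Plk1, Top2a, Mcm6, Rrm2 and Uhrf1, the last a reader of hemimethylated DNA. The median was -0.79 for mitosis genes and -0.41 for replication genes, beside 0.11 for all genes. Aurkb, the kinase of the chromosomal passenger complex, was furthest apart (-1.46 ± 0.23, adjusted p = 0.00825), with 103 and 275 in non-tumour colon, against 267 and 799.9 in non-tumour small intestine; the WT arrays were higher in both tissues. Foxm1 was the 1 member higher in colon (1.04 ± 0.23, adjusted p = 0.0257), by its chosen probe set. One dimmer Foxm1 probe set had 103 and 171 in non-tumour colon, against 108 and 137 in non-tumour small intestine. The other had 11.4 and 116, against 11.6 and 217. Both overlapped between the tissues, so this call rests on 1 probe set.

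In tumours, 2 of 49 members were higher in colon than in small intestine, against 5.76% of genes higher and 7.36% lower, a share that does not exceed the background. Tk1 differed by 1.18 ± 0.21 (adjusted p = 0.0175) and Rrm1 by 0.78 ± 0.16 (adjusted p = 0.0306), and Rrm1 had 3879 and 2825 in colon tumours, against 1959 and 1904 in small intestine tumours. The estimate was above 0 for 47 of 49 members, with a median of 0.46, beside 0.07 for all genes. The mean over mitosis genes of the log2 signal, each centred on its own mean, was 0.88 and 0.57 in colon tumours, -1.03 and -0.65 in non-tumour colon, 0.03 and 0.31 in small intestine tumours, and -0.06 and -0.05 in non-tumour small intestine. For replication genes it was 0.76 and 0.62, -0.59 and -0.71, 0.09 and 0.42, and -0.28 and -0.32 in the same groups.

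**Figure D4:**
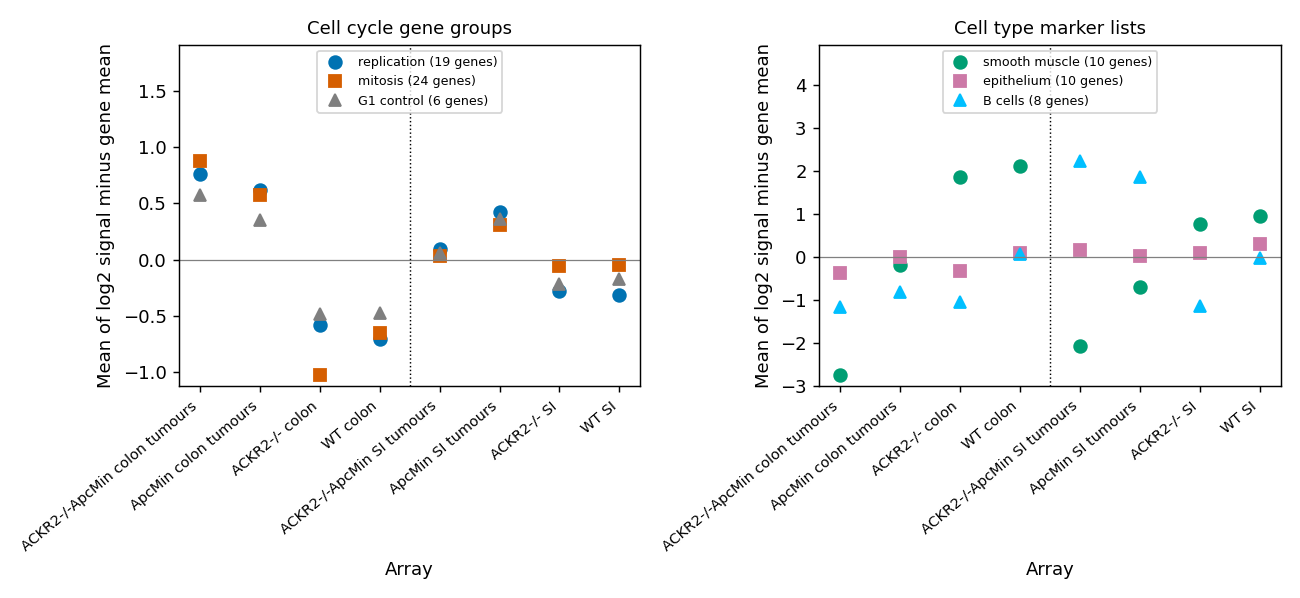
Mean over genes of the log2 signal minus each gene's mean over 8 arrays, 1 point per array and gene list, for cell cycle roles (left) and for marker lists of other cell types (right). Mitosis genes are lowest in the 2 non-tumour colon arrays (-1.03 and -0.65), where smooth muscle markers are highest (1.85 and 2.11).

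Cell type markers moved with these groups. The summed signal of 10 smooth muscle genes was 9834 and 36200 in colon tumours, against 116329 and 137523 in non-tumour colon, and 12570 and 27172 in small intestine tumours, against 69977 and 65271 in non-tumour small intestine. All 10 passed as lower in colon tumours. In small intestine tumours 7 of 10 passed as lower, and all 10 estimates lay between -3.12 and -1.54. In both tumour tissues the ACKR2-/-ApcMin/+ array was the lowest. The summed signal of 10 epithelial genes lay between 113628 and 149110 over the 8 arrays; 1 of them rose (Krt18) and 1 fell (Cdx1) in colon tumours, with a median of -0.19. The sum of 8 tested B cell and germinal centre genes was 12250 and 8086 in small intestine tumours, against 866 and 2014 in non-tumour small intestine, and 1016 and 1169 in colon tumours, against 1005 and 2042 in non-tumour colon. Of 9 leukocyte genes, 3 rose in colon tumours and 1 in small intestine tumours. Of 8 fibroblast genes, 4 fell in colon tumours and 2 in small intestine tumours. Of all genes, 11.0% were called higher and 12.6% lower in colon tumours, and 2.77% higher and 1.20% lower in small intestine tumours. B cells that divide in germinal centres express the cell cycle genes too. The part of muscle and of B cells in the cell cycle differences was not tested, and in pooled tissue a larger share of dividing cells and more RNA of these genes per cell cannot be told apart.

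Genes of intestinal stem cells and the crypt base moved the same way as the cell cycle members in colon. Of 9 such genes, 8 rose in colon tumours (median 1.59) and 3 in small intestine tumours (median 1.23), against 11.0% and 2.77% of all genes. Lgr5, a receptor that marks crypt base stem cells, had 3027 and 1861 in colon tumours, against 135 and 296 in non-tumour colon (3.57 ± 0.27, adjusted p = 0.00163), and 1730.4 and 1217 in small intestine tumours, against 580.1 and 627 in non-tumour small intestine (1.27, adjusted p = 0.062). Unlike most mitosis genes, Lgr5 was at least 1 apart on the log2 scale in both tissues. Olfm4, another crypt base gene, was under the floor in the colon arrays, so no colon difference could be measured. It did not pass in small intestine.

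The wider pathway was read from further lists. Of 50 other mitosis genes tested, 42 rose in colon tumours and 0 fell (median 1.46), against 11.0% and 12.6% of all genes. In small intestine 0 passed (median 0.20), against 2.77% of all genes higher and 1.20% lower. The highest were Zwilch, a kinetochore protein (2.17 ± 0.27), Ncapg, a condensin subunit (2.01 ± 0.35), and Cdca8, borealin of the chromosomal passenger complex. Cdca8 was also the 1 gene of this list whose tumour effect differed between tissues (1.52 ± 0.25, adjusted p = 0.0439). This is a share of 2%, beside 0.735% of all genes. It had 1729.7 and 2225 in colon tumours, against 479 and 503 in non-tumour colon. In small intestine it had 1310.2 and 2093 in tumours, against 1304 and 1076 in non-tumour tissue. The lowest were Mad1l1 (0.19 ± 0.45), Zw10 (0.18 ± 0.19) and Pttg1, securin (-0.38 ± 0.16), none of which passed.

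Of 38 other replication genes tested, 17 rose in colon tumours and 0 fell (median 0.73), against 11.0% and 12.6% of all genes. The highest were Mcm10, an initiation factor (1.59 ± 0.25), Dbf4, the activator of the CDC7 kinase (1.57 ± 0.21), and Pole2, a subunit of polymerase epsilon (1.46 ± 0.30). The lowest were Pold1 (0.07 ± 0.26), Orc3 (-0.04 ± 0.22) and Fen1 (-0.37 ± 0.20). In small intestine 1 gene of this list rose, Rpa1, a subunit of the single-strand DNA binding complex (0.85 ± 0.14, adjusted p = 0.0302), with a list median of 0.33; this share of 2.63% was near the 2.77% of all genes. Between tissues 0 of 38 passed, and the list median of the difference was 0.35.

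Of 18 genes that brake the cycle, 2 rose and 3 fell in colon tumours, and 0 passed in small intestine tumours; the shares in colon (11.1% and 16.7%) were near those of all genes (11.0% and 12.6%). Cdkn1b, the inhibitor p27, had 539.8 and 906 in colon tumours, against 1807 and 1698 in non-tumour colon (-1.32 ± 0.18, adjusted p = 0.0068). Rbl2, the pocket protein p130 (-0.96 ± 0.17, adjusted p = 0.0147), and Cdkn1a, the inhibitor p21 (-0.76 ± 0.19, adjusted p = 0.0328), fell less. The 2 that rose were Cdkn1c, the inhibitor p57, with 739 and 572 in colon tumours, against 205 and 193 in non-tumour colon (1.71 ± 0.33, adjusted p = 0.0167), and Cdkn2a, the locus of p16 and p19Arf, with 105 and 94.6 in colon tumours, against 1.82 and 34.7 in non-tumour colon, where the floor stands in for the measured signals (0.63 ± 0.17, adjusted p = 0.0397). Rbl1, the pocket protein p107, had 0.11 ± 0.16.

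Loss of ACKR2 gave no call among the members, in tumours or in non-tumour tissue. In tumours 0 of 49 passed, against 0.00% of genes higher and 0.0357% lower, with 5 members lower at an unadjusted p under 0.05, against 10.4% of all genes, and a median of 0.05. The estimate averages 2 tissues that went opposite ways: the ACKR2-/-ApcMin/+ tumours were above the ApcMin/+ tumours for 36 of 49 members in colon (median 0.32, beside 46.2% of all genes) and below them for 42 of 49 in small intestine (median -0.29, beside 56.0% of all genes). In 29 members the ACKR2-/-ApcMin/+ array was higher in colon and lower in small intestine, against 22.4% of all genes. The reverse was seen in 0 members, against 1932 of 14023 genes. With 1 array per group this contrast is the error term of the model and was not tested. No member was 2-fold apart in either direction in the averaged estimate.

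In non-tumour tissue 0 of 49 members passed for ACKR2, against 0.128% of genes higher and 0.556% lower, with 7 at an unadjusted p under 0.05, of which 1 was higher and 6 lower, against 10.6% and 14.2% of all genes. Aurkb was the lowest at -1.50 ± 0.23 (adjusted p = 0.0516), with 103 in ACKR2-/- colon, against 275 in WT colon, and 267 in ACKR2-/- small intestine, against 799.9 in WT small intestine. With arrays scaled to equal medians the all-gene median of this contrast became 0.44, beside a member median of 0.49. Of 49 members, 11 were then called higher and 1 lower, against 3600 and 173 of 14130 genes. The member count thus moved with a shift of all genes. The ratio of 3′ to 5′ Actb signal was 1.28 to 1.39 in the 4 arrays of ACKR2-/- genotypes and 1.13 to 1.17 in the 4 others. The same ratio for Gapdh overlapped, at 0.74 to 0.87 in the ACKR2-/- genotypes and 0.77 to 0.95 in the others. The part of RNA quality was not tested.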

How the data were processed

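The deposited table held linear signal intensity values, 1 column per array; the authors made them with MAS5 and Partek, per the submitters' processing notes, which name no versions. Labelling used the 3' IVT Express kit, per the labels' protocols. Scanner files were not used here. Precision is limited by having 8 arrays. Of 45101 probe sets, 64 controls were left out; 34945 had 1 gene, 932 several and 9160 none in the platform annotation, and 34741 matched RefSeq by gene ID, with 0 symbols updated. No value column lacked a sample.

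Signals under 64.1 (log2 6.00), the median over arrays of the 40th percentile, were raised to that floor before log2 was taken. Each gene was represented by its brightest probe set and tested if above the floor in at least 2 arrays. A single limma fit (version 3.58.1, R 4.3.3, trended variance) gave every contrast from 6 coefficients: 4 tissue and tumour intercepts, and 2 ACKR2 effects, for tumours and for non-tumour tissue, each common to colon and small intestine. It left 2 residual and added 4.16 prior degrees of freedom; the median standard deviation was 0.22. Tests were two-sided, with Benjamini-Hochberg adjustment over 14023 genes and a threshold of 0.05. With 1 pool per group, p-values measure only how far ACKR2 differences varied between tissues and hold no variation between mice. The model was also run on data simulated from its own fit, which cannot show variation between mice or pools. Figures used matplotlib 3.10.9.

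Members and gene lists were chosen with earlier results of these data known, so counts over them are descriptions. The members shown in every array were Mki67, Pcna, E2f1, Ccnd1, the 3 highest and 2 lowest tumour effects in colon per role, and the 3 largest and 3 smallest differences between tissues; of other replication genes, other mitosis genes and brakes, the 3 highest and 3 lowest were named. Alternatives were other floors, filters, scalings, the mean of probe sets, other models, and arrays left out. Listed genes not analysed here include Ccnb1, Chaf1a, Kif14, Kif15 and Trp53.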

Additional observations from a re-analysis of the deposited data

Results flagged for a closer look

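A tested difference between tissues marked 4 members, in each of which the tumour effect was larger in colon than in small intestine. The difference on the log2 scale was 1.78 for Birc5, 1.70 for Cdc20, 1.70 for Tk1 and 1.46 for Rrm2. In all 4 genes both colon pairs exceeded both small intestine pairs. Over 11 settings that kept all arrays, Rrm2 ranged from 1.39 to 1.68 and was called in 8, Cdc20 ranged from 1.17 to 1.91 and was called in 8, Birc5 was at 1.78 or above and was called in 7, and Tk1 ranged from 1.70 to 1.91 and was called in 6. With 1 array left out, the lowest adjusted p of any member was 0.201.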

How the results depend on the processing

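No paired analysis was possible because each group has 1 array and no replicate numbers; the model's shared ACKR2 effects already link the colon and small intestine arrays of a genotype. No member's called value reversed in any setting. The count called in colon tumours, 44 in the report, stayed between 42 and 44 except that it was 0 without a filter on low values, 1 with the mean of all probe sets, and 0 without both WT arrays, without both ACKR2-/-ApcMin/+ arrays and (0 to 0) without any single array. The averaged tumour effect, 42 members, gave 1, 2, 0, 0 and 0 in the same order. The small intestine count, 0, became 2 with signals above the floor in all 8 arrays, against 310 of 10655 genes higher. It became 1 in the additive model, against 391 of 14023 genes higher. The difference between tissues, 4 members, became 2 with the floor at the 60th percentile, 7 above the floor in all 8 arrays, 1 without a variance trend, which was none of the 4, and 0 in the settings that gave 0 to 1 in colon. Colon against small intestine in tumours, 2 members, became 4 with the floor at the 60th percentile, above the floor in all 8 arrays and with median centring, 1 without a trend and 0 in those same settings. In non-tumour tissue that contrast, 13 members, became 20 with quantile normalization and 0 in those same settings. The additive model has 1 ACKR2 effect common to tumours and non-tumour tissue, and it called 2 members lower, against 545 of 14023 genes. The ACKR2 effect in non-tumour tissue, 0 members, became 1 without a floor, against 427 of 14023 genes. It became 1 above the floor in all 8 arrays, against 851 of 10655 genes, and 12 with median centring, against 3773 of 14130 genes. Fewer arrays leave fewer residual degrees of freedom; other causes were not tested. Signals near the floor, as for Tyms, limit what can be measured.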
